A study of Komagataella phaffii GS115 with 6 samples.

Results

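FLD1 and FDH1 encode the oxidation steps that carry formaldehyde towards carbon dioxide in the methylotrophic yeast Komagataella phaffii. They were taken by their identifiers, PAS_chr3_1028 for FLD1 and PAS_chr3_0932 for FDH1, and are 2 of the 115 genes in the table analysed. Cultures of strain GS115, labelled WT, had been grown for 48 h in BMMY with 1% maltose added (3 libraries) or in BMMY without it (3 libraries). BMMY is a buffered complex medium that supplies methanol as carbon source, and GS115 is a histidine auxotroph widely used as an expression host. The series asks how maltose bears on the production of recombinant type III collagen. The labels do not say whether these cells carried a collagen construct, nor whether the libraries of a medium came from separate cultures, so the spread between libraries may be technical.

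In a methylotrophic yeast, alcohol oxidase turns methanol into formaldehyde inside the peroxisome. Formaldehyde is either fixed onto a sugar phosphate, the assimilatory route, or leaves for the cytosol, where it combines with glutathione. FLD1, the S-(hydroxymethyl)glutathione dehydrogenase, oxidises this adduct with NAD+ as the acceptor, a hydrolase then releases formate, and FDH1, the NAD+-dependent formate dehydrogenase, oxidises formate to carbon dioxide. The route yields NADH and removes formaldehyde, which is toxic. The FLD1 promoter is also used to drive foreign genes on methanol or methylamine.

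All 115 genes had been listed by the authors for a difference between these same media, and both genes were chosen from that list with their values known. Their levels and fold changes are therefore given as a description. Calls from the fit are to be read against the share of all tested genes called, and support nothing about the pair. In the authors' deposited table the log2 fold change of FLD1 was 1.07 and that of FDH1 was 1.26. The smallest positive value there was 1.00, so FLD1 stood close to the edge of the list, at place 39 of 56 positive genes, and FDH1 at place 18.

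The implied depth of the libraries, worked out from counts and FPKM (fragments per kilobase of gene and scaled to library size), ran from 35.3 to 55.3 M (mega) fragments with maltose and from 53.2 to 76.1 M in BMMY. The listed genes took 14.9% to 15.3% of it with maltose and 6.83% to 10.1% in BMMY. For FLD1 and FDH1, BMMY replicate 1 lay closer to the maltose libraries than BMMY replicates 2 and 3 did, so their values are also given without it.

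FLD1 was the steadier of the pair. Its level was 10146, 10307 and 10535 FPKM in maltose replicates 1, 2 and 3, against 8315, 5448 and 5246 FPKM in BMMY replicates 1, 2 and 3. The maltose libraries were nearly level with each other, the groups did not overlap, and BMMY replicate 1 lay between the maltose libraries and the other BMMY libraries. Groups did not overlap for 94.8% of the 115 listed genes in either direction, and for 43.5% with maltose higher. The means were 10329 ± 196 FPKM with maltose and 6336 ± 1717 FPKM in BMMY (SD, n = 3 each). The log2 fold change of FLD1, maltose over BMMY, was 0.70 (SE 0.20). Against BMMY replicates 2 and 3 alone, a comparison chosen after seeing the data, it was 0.95 (SE 0.11). Leaving out BMMY replicate 2 or BMMY replicate 3 instead gave 0.61 (SE 0.24) and 0.59 (SE 0.21). With the libraries scaled to equal FPKM sums over the listed genes the fold change turned to -0.13. Those sums include FLD1 and FDH1 themselves and other genes listed for this contrast. They are therefore not an independent base, and the sign is not read as a result.

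FDH1 was the more abundant, with the wider gap between media. It was at 27077, 27319 and 29759 FPKM in maltose replicates 1, 2 and 3, against 21781, 12383 and 11058 FPKM in BMMY replicates 1, 2 and 3. Here too the groups did not overlap, as for 94.8% of the 115 listed genes in either direction. BMMY replicate 1 was the BMMY library nearest to the maltose libraries. FDH1 averaged 28052 ± 1484 FPKM with maltose and 15074 ± 5846 FPKM in BMMY (SD, n = 3 each). Its log2 fold change was 0.90 (SE 0.25), and 1.26 (SE 0.12) against BMMY replicates 2 and 3 alone. Leaving out BMMY replicate 2 or BMMY replicate 3 instead gave 0.77 (SE 0.30) and 0.72 (SE 0.23). With equal FPKM sums the log2 fold change of FDH1 was 0.083. RNA came from whole cultures, so more transcript per cell and more cells with the transcript cannot be told apart.

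**Figure D1:**
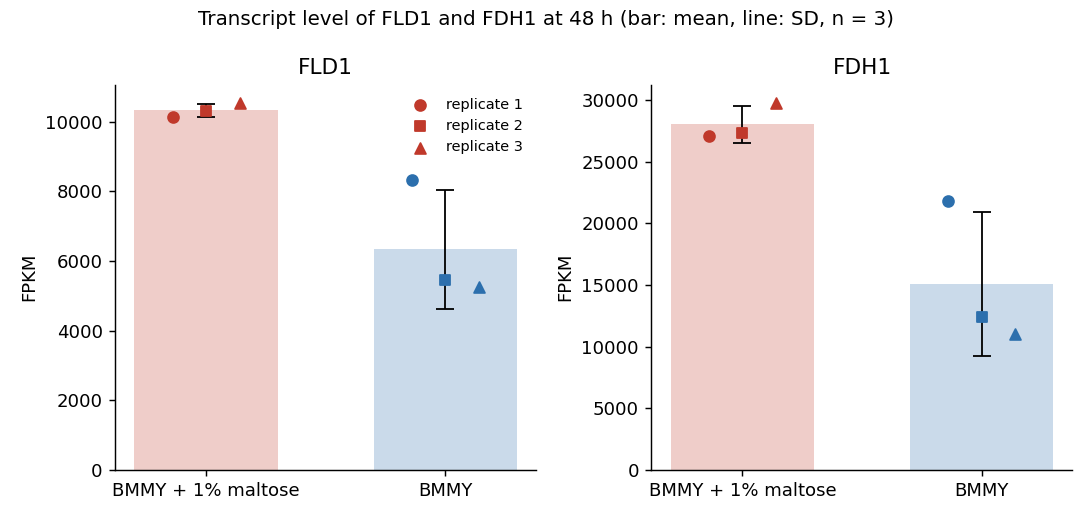
FPKM of FLD1 (left) and FDH1 (right) in each library, with maltose left of BMMY; bars are means, lines are SD over 3 libraries and marker shapes are replicate numbers. Both genes were higher in the 3 maltose libraries than in any BMMY library, as were 43.5% of the 115 listed genes. BMMY replicate 1 (8315 FPKM of FLD1 and 21781 FPKM of FDH1) lay above the other BMMY libraries.

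Both genes are also among the most abundant transcripts of the table, measured per gene length. By mean FPKM over the 6 libraries, FDH1 was at place 2 of 115 genes and FLD1 at place 5. At place 1 was TMA10, a ribosome-associated protein, at 43989 ± 2872 FPKM with maltose and 28250 ± 1850 FPKM in BMMY (SD, n = 3 each). FDH1 lay below TMA10 in all 6 libraries. The thiamine precursor gene THI5 was at place 3 by mean, at 32642 ± 3209 FPKM with maltose and 7952 ± 1992 FPKM in BMMY. The order of THI5 and FDH1 depended on the medium: THI5 lay above FDH1 with maltose, where FDH1 was at place 3 in every library, and below it in BMMY, where FDH1 was at place 2 in every library. YMR099C, a glucose-6-phosphate 1-epimerase by its annotation, ranged from 7730 to 11879 FPKM with maltose and from 6153 to 7057 FPKM in BMMY. The thiazole synthase gene THI4 ranged from 9770 to 11291 FPKM with maltose and from 4287 to 6117 FPKM in BMMY. Both ranges overlap those of FLD1 in each medium. Library by library, THI4 was nonetheless below FLD1 in all 3 BMMY libraries, at 6117, 5115 and 4287 FPKM in BMMY replicates 1, 2 and 3, against the FLD1 values given above.

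As a share of all implied fragments, FDH1 took 2.973%, 2.999% and 3.267% in maltose replicates 1, 2 and 3, against 2.39%, 1.36% and 1.21% in BMMY replicates 1, 2 and 3. FLD1 took 1.16%, 1.17% and 1.20% with maltose, against 0.948%, 0.621% and 0.598% in BMMY. As a share of the counts over the 115 listed genes only, FLD1 was lower with maltose, at 7.76%, 7.76% and 7.86%, against 9.35%, 8.28% and 8.75% in BMMY. The corresponding shares of FDH1 were 19.9%, 19.8% and 21.4% with maltose, against 23.6%, 18.1% and 17.8% in BMMY, and these overlapped. The direction for FLD1 thus depends on whether the whole library or the selected list is the base.

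**Figure D2:**
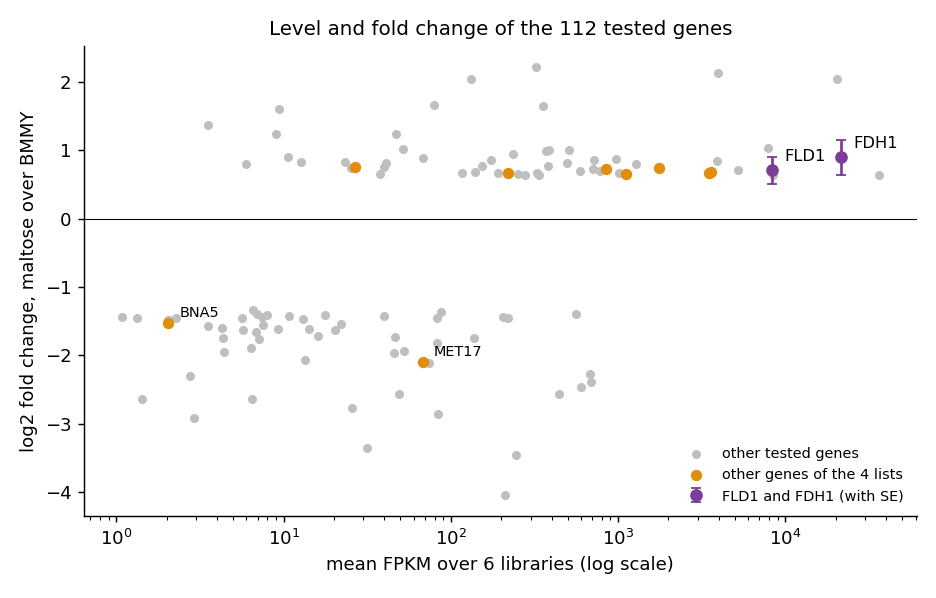
Mean FPKM over 6 libraries (log scale) against the log2 fold change, maltose over BMMY, for the 112 tested genes. FLD1 and FDH1 (purple, lines are SE) lie at the right edge with fold changes of 0.70 and 0.90, while other genes of the pathway lists (orange) lie at lower levels.

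The ratio of FDH1 to FLD1 within a library does not depend on depth or on the scaling between libraries. It was 2.67, 2.65 and 2.82 in maltose replicates 1, 2 and 3, against 2.62, 2.27 and 2.11 in BMMY replicates 1, 2 and 3. The groups did not overlap, though BMMY replicate 1 came close to the lowest maltose library. Ratios of FDH1 to the 55 other tested genes with positive fold changes did not overlap for 12 genes, FLD1 included. Those of FLD1 to its 55 others did not overlap for 11, FDH1 included. The ratio averaged 2.71 ± 0.10 with maltose and 2.33 ± 0.26 in BMMY (SD, n = 3 each), a difference of 0.22 on the log2 scale. Without BMMY replicate 1 the difference was 0.31, and leaving out any single library gave values between 0.15 and 0.31. FDH1 was thus in excess of FLD1 in 6 of 6 libraries, and by more in the maltose libraries than in the BMMY libraries. Counting error was 0.08% to 0.18% of a value for either gene, far below the spread between BMMY libraries.

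**Figure D3:**
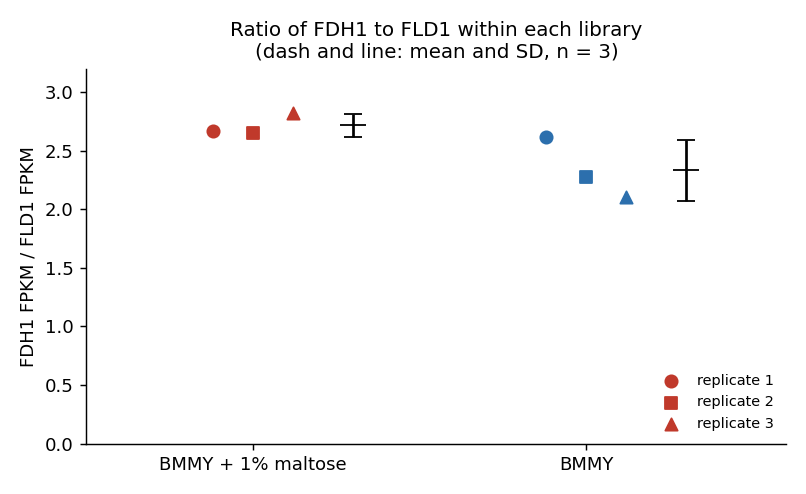
FPKM of FDH1 divided by FPKM of FLD1 in each library, maltose left of BMMY; the dash and line beside each group are the mean and SD over 3 libraries. The maltose libraries sit between 2.65 and 2.82, and the BMMY libraries between 2.11 and 2.62.

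Most of the spread in BMMY came from a single library. The coefficient of variation of FLD1 was 1.89% over the maltose libraries and 27.1% over the BMMY libraries, and that of FDH1 was 5.29% with maltose and 38.8% in BMMY. Without BMMY replicate 1 the BMMY values dropped to 2.67% for FLD1 and 7.99% for FDH1. Over the 56 tested genes with positive fold changes the median coefficient was 8.75% with maltose and 27.2% in BMMY. Only 2 of those 56 genes varied less than FLD1 between maltose libraries. BMMY replicate 1 held 1.56 times as much FLD1 and 1.86 times as much FDH1 as the mean of the other BMMY libraries. On a log2 scale that runs from the mean of BMMY replicates 2 and 3 (0%) to the maltose mean (100%), it stood at 67.1% for FLD1 and 71.1% for FDH1, beside a median of 54.5% over those 56 genes and of 24.4% over all 115 listed genes (-61.8% to 101%). MET17 and BNA5, both lower with maltose, differed from each other in this. For MET17 BMMY replicate 1 stood at -42.3%, farther from the maltose libraries than the other BMMY libraries were. For the kynureninase gene BNA5 it stood at 48.2%, on the side of the maltose libraries.

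**Figure D4:**
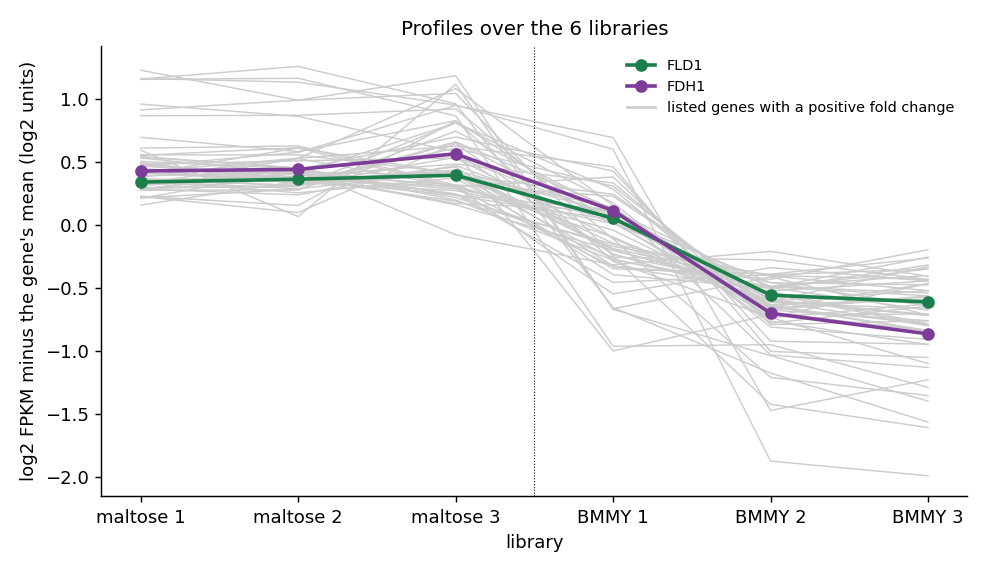
log2 FPKM of each listed gene with a positive fold change, minus that gene's mean, in each of the 6 libraries; FLD1 is green, FDH1 purple and the others grey, and lines only join the points of a gene. Both members are nearly flat over the maltose libraries, with BMMY replicate 1 above BMMY replicates 2 and 3.

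In edgeR's quasi-likelihood test over 112 genes, with Benjamini-Hochberg adjustment and a threshold of 0.05, FLD1 and FDH1 were both called higher with maltose, 2 of 2. Of all genes tested, 43.8% were called higher, 50.0% lower and 93.8% in either direction. Groups that did not overlap, with maltose higher, were found for 43.5% of the 115 listed genes, and groups that did not overlap in either direction for 94.8%. Since the list was selected for this contrast, nothing is read from the members' calls. The call for FLD1 was lost without BMMY replicate 2, under TMM scaling (trimmed mean of M-values, computed here over the listed genes) and with equal FPKM sums, and that for FDH1 only with equal FPKM sums among the settings tried.

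**Figure D5:**
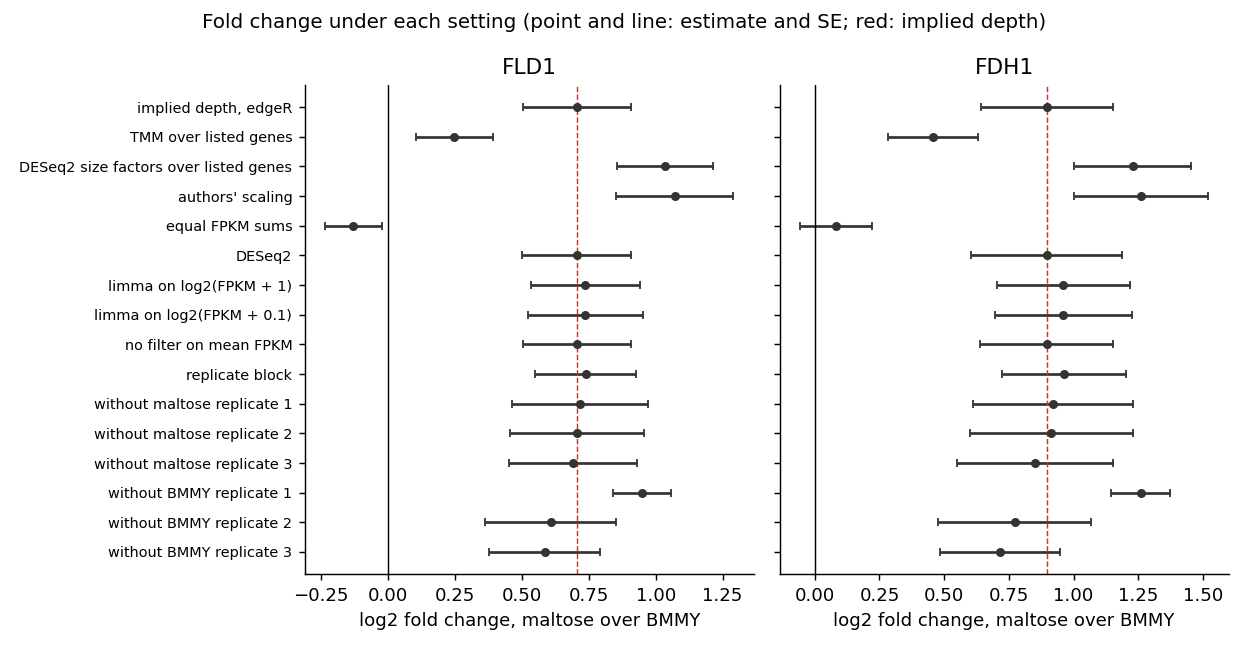
log2 fold change, maltose over BMMY, of FLD1 (left) and FDH1 (right) under each scaling, test and left-out library; points are estimates, lines are SE, the red line marks the value with implied depths and the black line is 0. FLD1 runs from -0.13 to 1.07 and FDH1 from 0.083 to 1.26, with both lowest under equal FPKM sums.

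Besides the pair, 4 genes of the methanol pathway list were in the table: FBP1, FBA1, SHB17 and PEX13. All 4 of 4 were called higher with maltose, with none lower, beside 43.8% called higher and 50.0% lower of all 112 genes tested. Since the table was selected for this contrast, no response of the pathway is read from that count. Their median log2 fold change was 0.68, beside 0.80 over the 56 tested genes with positive fold changes and -0.35 over all 112. Only FBP1 was called without maltose replicate 1, maltose replicate 2, BMMY replicate 2 or BMMY replicate 3, none under TMM, and with equal FPKM sums all 4 were negative. Other genes of the route, such as alcohol oxidase, S-formylglutathione hydrolase and dihydroxyacetone synthase, were also looked for, and none was matched in the table. It holds only genes the authors listed for a difference, so the levels of those other genes are not known here. FBP1, the fructose-1,6-bisphosphatase that acts in the sugar phosphate cycle for formaldehyde fixation, had 2172, 2106 and 2281 FPKM in maltose replicates 1, 2 and 3, against 1487, 1233 and 1219 FPKM in BMMY replicates 1, 2 and 3. FBA1, the aldolase of the same cycle, had 4837, 4414 and 4063 FPKM with maltose, against 3746, 2223 and 2291 FPKM in BMMY. SHB17, a sedoheptulose bisphosphatase by its symbol, had 4609, 4407 and 3752 FPKM with maltose, against 3613, 2364 and 2089 FPKM in BMMY. In both genes the lowest maltose library was just above BMMY replicate 1. BMMY replicate 1 stood less apart in FBP1, at 33.5% of the way to the maltose mean, than in either member.

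Set against FBP1 in the same library, FLD1 was 4.73 ± 0.15 times as abundant with maltose and 4.77 ± 0.71 times in BMMY, a log2 difference of -0.0032, and these ratios overlapped. FDH1 was 12.8 ± 0.32 times FBP1 with maltose and 11.3 ± 2.97 times in BMMY, which overlapped too. PEX13 is part of the machinery that imports proteins into peroxisomes. FLD1 was 7.53 ± 0.39 times PEX13 with maltose and 7.28 ± 0.34 times in BMMY, while FDH1 was 20.5 ± 1.79 times PEX13 with maltose and 17.0 ± 2.03 times in BMMY (SD, n = 3 each). Of the 8 ratios of FDH1 or FLD1 to the 4 pathway genes, only that of FDH1 to PEX13 did not overlap between media. The mean log2 ratio was higher with maltose by 0.22 to 0.27 for FDH1, and for FLD1 the difference ran from -0.0032 to 0.05. Without BMMY replicate 1 the FDH1 differences ran from 0.29 to 0.43 and those of FLD1 from -0.02 to 0.12, and against FBP1 FDH1 was at 0.43 in place of 0.22 and FLD1 at 0.12. Over the 55 other tested genes with positive fold changes, the mean log2 ratio of FDH1 to the gene was higher with maltose for 38, and that of FLD1 for 15. Between media the FDH1 ratios did not overlap for 12 of these 55 genes, 6 higher and 6 lower with maltose, and the FLD1 ratios for 11, all 11 lower.

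The deposited KEGG annotation places both genes under methane metabolism and carbon metabolism. FDH1 is also under glyoxylate and dicarboxylate metabolism, and FLD1 under glycolysis, fatty acid degradation, tyrosine metabolism and pyruvate metabolism. Apart from the pair, 4 listed genes were matched to at least 1 of these pathways, and FBA1 was not among them. Of these 4, 3 were called higher with maltose and 1 lower, beside 43.8% and 50.0% of all 112 genes tested. The higher ones were FBP1, the alanine:glyoxylate aminotransferase gene AGX1 and the mitochondrial aldehyde dehydrogenase gene ALD5, all 3 negative with equal FPKM sums. Of them FBP1 alone was called without BMMY replicate 2 or BMMY replicate 3, and none under TMM, while AGX1 also lost its call without maltose replicate 1 and ALD5 without maltose replicate 3. ALD5, which oxidises other aldehydes, was far less abundant, at 29.6, 31.0 and 40.1 FPKM with maltose, against 25.9, 15.3 and 18.5 FPKM in BMMY. The lower one was MET17, the O-acetylhomoserine sulfhydrylase of sulfur assimilation. It had 22.7, 20.9 and 34.2 FPKM with maltose, against 153, 94.6 and 85.1 FPKM in BMMY, with no overlap.

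FLD1 needs glutathione and both enzymes need NAD+, so genes for these cofactors were listed too. In the glutathione list only ustS (PAS_chr2-1_0748), annotated by similarity, was present besides FLD1. It was called higher, at 984, 1001 and 1169 FPKM with maltose, against 845, 509 and 545 FPKM in BMMY, but not without maltose replicate 3 or BMMY replicate 2, nor under TMM or with equal FPKM sums, where it was negative. Of the NAD list only BNA5 was present, the kynureninase of NAD synthesis from tryptophan. BNA5 was called lower in every setting tried, at 0.845, 0.851 and 1.48 FPKM with maltose, against 1.96, 3.49 and 3.68 FPKM in BMMY. These lists hold 1 such gene each, so no pattern of a pathway can be read from them.

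The genes nearest to each member were found from the root mean square difference between log2 FPKM profiles over the 6 libraries, each centred on its mean. Nearest to FLD1 were PEX13 (0.06 log2 units), the farnesyl pyrophosphate synthetase gene FPS1 (0.07), AGX1 (0.07), PET18 (0.08), annotated as required for respiratory growth, and ustS (0.08). Nearest to FDH1 were the translation elongation factor gene TEF4 (0.08), FPS1 (0.10), the thiamine enzyme gene thi4 (PAS_chr3_0843, 0.11), the FAD synthetase gene PAS_chr1-3_0240 (0.11) and the sulfiredoxin gene SRX1 (0.12). The members were not each other's nearest: they lay 0.15 apart, with FDH1 at place 18 among the 114 other genes for FLD1, and FLD1 at place 11 for FDH1. With each medium centred on its own mean they lay 0.10 apart, at places 9 and 8. The median distance to the other genes with positive fold changes in the authors' deposited table was 0.19 for FLD1 and 0.21 for FDH1. All of these genes had been selected for a difference between the media, and their profiles share that difference. With the within-medium centring, which takes that difference out, FPS1 stayed among the 5 nearest of both members, and thi4 came nearest to FLD1, at 0.01. The largest deviation left was that of BMMY replicate 1, at 0.42 log2 units for FLD1 and 0.60 for FDH1. Nearness under this centring therefore rests mainly on the spread between BMMY libraries.

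Both genes are on chromosome 3 of the RefSeq annotation of assembly ASM2700v1, with 98 protein-coding genes between them. Chromosome 3 holds 23.8% of all 5040 protein-coding genes and 22.6% of the listed ones. None of the 2 nearest genes on either side of FLD1 or FDH1 was in the table. The deposited counts and FPKM imply a length of 1140 bases for FLD1, 114 fewer than its RefSeq gene span of 1254, and of 1098 bases for FDH1, equal to its span. For 108 of 115 listed genes the implied length was within 1% of the span.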

How the data were processed

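RNA-seq libraries from 6 samples were analysed, 3 per medium, grouped by the sample titles. The authors deposited whole-number counts and FPKM per gene and library, per the file headers. They also deposited a log2 fold change and a p-value per gene, by a test the sources used here do not give. CASAVA, HISAT2 2.2.1 and StringTie are named per the submitters' processing notes. Build, annotation and strandedness were not given in the sources used here. Coordinates are left out for that reason.

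Implied depth was obtained by dividing each count by its FPKM and RefSeq gene length and taking the median, so its absolute size depends on those lengths. edgeR 4.0.16 in R 4.3.3 was fitted to the counts with these depths as library sizes and medium as the only term, on the 112 genes averaging 1 FPKM or more, and was tested on simulated data. SE is the absolute log2 fold change over the square root of F. Alternatives used DESeq2 1.42.0, limma 3.58.1 and other scalings. All 115 identifiers matched RefSeq.

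The members and lists were chosen with earlier results of these data known. The named genes are the members, every listed gene of the 4 lists, the 5 nearest profiles of each member, and the neighbours of each in the order of levels. TMA10 and THI5 are such neighbours of FDH1, and YMR099C and THI4 of FLD1. Replicate numbers come from the titles and were not taken to pair the libraries. Sequences were not used here.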

Additional observations from a re-analysis of the deposited data

How the results depend on the processing

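Scaling between libraries moved the fold changes and calls in both directions. The ratio of FDH1 to FLD1 does not depend on it. The median over all tested genes of the shift in each gene's log2 fold change was -0.49 under TMM and 0.32 under DESeq2 size factors. It was 0.36 under the authors' scaling (recovered from the fold changes they deposited) and -0.86 with equal FPKM sums. The log2 fold change of FLD1 was 0.25, 1.03, 1.07 and -0.13 in that order. That of FDH1 was 0.46, 1.23, 1.26 and 0.083. Calls numbered 69, 112, 112 and 63, in place of 105. Calls higher with maltose numbered 13, 56, 56 and 7, in place of 49, and members called 1, 2, 2 and 0, in place of 2. TMM, DESeq2 size factors and equal FPKM sums were all computed over the listed genes, FLD1 and FDH1 included. None of these is therefore an independent base.

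With each library left out in turn, FLD1 ran from 0.59 to 0.95, FDH1 from 0.72 to 1.26, their log2 ratio from 0.15 to 0.31, all calls from 85 to 112, higher calls from 29 to 56 and members called from 1 to 2. The fewest calls came without BMMY replicate 2. Coefficients of variation ran from 1.11% to 2.66% for FLD1 and from 0.63% to 6.67% for FDH1 with maltose, and from 2.67% to 32.0% for FLD1 and from 7.99% to 46.2% for FDH1 in BMMY. DESeq2, limma with either pseudocount and no filter on low values each left both members called.

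The replicate block gave 0.74 for FLD1, 0.96 for FDH1 and 105 calls. Same-numbered libraries had deviations that correlated at -0.16, -0.02 and 0.04 across genes. No library correlated best with its own number, so the numbers were not read as pairs. Comparing FLD1 and FDH1 against BMMY replicates 2 and 3 alone was chosen after seeing the data, and uses the same libraries as leaving out BMMY replicate 1.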
